A study of Mus musculus with 3 samples.

Results

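The genes described here are 10 components of transforming growth factor beta (TGF-β) signalling, namely the ligand genes Tgfb1, Tgfb2 and Tgfb3, the receptor genes Tgfbr1, Tgfbr2 and Tgfbr3, the receptor-activated Smad genes Smad2 and Smad3, and the inhibitor genes Smad7 and Skil. They were taken by name. Chromatin accessibility was measured by single-nucleus ATAC-seq, in which Tn5 transposase cuts open chromatin, and was deposited as counts of each nucleus in 500-bp features. Of 315694 features, 320 overlapped the mm10 body of 1 of the 10 genes or the 2 kb on either side, out of 18015 genes with at least 1 feature. The unit is the CPM, counts per 1000000, that is the counts in a gene's features out of all counts in features of the same nuclei, scaled to 1000000.

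Nuclei positive for GFP were collected by flow sorting of dorsal skin from mice carrying Dct-rtTA and Tre-H2B-GFP, in which the promoter of the pigment-cell gene Dct drives a doxycycline-dependent activator of histone-bound GFP. All mice received doxycycline for 5 days, so the transgenes and the drug were common to every condition, and their age is given as 7 weeks in the treatment text and as 8 weeks in the sample characteristics. The UVB nuclei came from a pool of 24 mice irradiated 3 times at 2.2 mJ/cm2. The anagen nuclei came from 8 mice depilated with Nair cream, which starts hair growth. The telogen nuclei came from 12 mice in the resting phase of the hair cycle. Anagen and telogen nuclei formed 1 sample, and UVB nuclei formed 2 technical replicates of 1 pool in a single matrix. UVB treatment and library therefore cannot be told apart. With 1 matrix per condition no test between conditions was possible. Each value is given with a 95% exact interval that covers counting error only and not the spread between mice.

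The matrices held 6553 UVB, 3753 anagen and 2042 telogen nuclei after each barcode was counted once per condition, with medians of 1726, 1577 and 1650 counts per nucleus. The same barcode occurred in more than 1 condition for 506 barcodes. The sort did not give pigment cells alone. Melanocyte-like clusters, named from 13 markers such as Dct, Mlana and Pmel, held 45.8% of UVB, 30.6% of anagen and 11.3% of telogen nuclei. The summed level of those 13 markers was 2069 CPM in UVB, 2992 CPM in anagen and 813 CPM in telogen nuclei. Keratinocyte-like nuclei made up 22.1% of UVB, 8.69% of anagen and 21.4% of telogen nuclei, endothelial-like nuclei 6.61%, 23.0% and 30.1%, and myeloid-like nuclei 4.52%, 3.65% and 18.1% in the same order. A value over all sorted nuclei mixes these classes, so a changed share of a class and a changed accessibility per nucleus cannot be told apart in it. The names rest on clusters rebuilt here from the deposited counts. In the myeloid-like class, which is cluster 8, markers of a further list were also raised. The median log2 fold there was 3.205 for the myeloid list and 2.278 for the next list. Whether the myeloid-like class also holds nuclei of another kind was not tested, and its levels below are those of the whole cluster.

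TGF-β ligands are secreted in a latent form and, once released, bind a type II receptor that activates a type I receptor. The type I receptor phosphorylates Smad2 and Smad3, which enter the nucleus with Smad4, while Smad7 and the Ski family hold the pathway back. In mouse hair follicles TGF-β signalling is known to bring melanocyte stem cells into quiescence, and TGF-β2 from the dermal papilla is known to help the hair germ start a new cycle.

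The promoters that carried the leading accessible feature or lay within a feature of their gene are shown to let the features below be placed. They are RefSeq sequences of GRCm38.p6, from 250 bases before to 50 after the annotated start, on the strand of the gene. Capitals mark the GC box GGGCGG or CCGCCC, found on either strand in 35.7% of 32851 promoters of this length, and the Smad box CAGAC or GTCTG, found in 49.6% of them. A match is a description of these letters and not of a bound site.
Tgfb1, chr7:25686752-25687051, plus strand: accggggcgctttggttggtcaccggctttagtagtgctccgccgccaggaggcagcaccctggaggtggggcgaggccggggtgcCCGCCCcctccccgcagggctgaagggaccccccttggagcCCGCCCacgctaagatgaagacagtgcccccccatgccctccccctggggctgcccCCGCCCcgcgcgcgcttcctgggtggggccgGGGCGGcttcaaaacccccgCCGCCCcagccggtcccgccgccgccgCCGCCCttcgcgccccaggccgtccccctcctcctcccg
Tgfbr1, chr4:47352972-47353271, plus strand: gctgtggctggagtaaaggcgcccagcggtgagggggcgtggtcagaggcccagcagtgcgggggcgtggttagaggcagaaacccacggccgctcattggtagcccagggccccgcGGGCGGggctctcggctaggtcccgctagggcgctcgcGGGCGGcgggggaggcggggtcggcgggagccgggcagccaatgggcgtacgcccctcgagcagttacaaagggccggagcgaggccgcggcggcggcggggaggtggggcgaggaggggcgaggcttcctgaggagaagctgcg
Smad3, chr9:63757945-63758244, minus strand: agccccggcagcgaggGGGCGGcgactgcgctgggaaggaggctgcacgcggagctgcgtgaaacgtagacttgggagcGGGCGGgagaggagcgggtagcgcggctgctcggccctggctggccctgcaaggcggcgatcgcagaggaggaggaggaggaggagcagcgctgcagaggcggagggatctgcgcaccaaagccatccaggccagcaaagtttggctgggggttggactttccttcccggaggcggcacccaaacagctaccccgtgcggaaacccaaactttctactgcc
Tgfbr2, chr9:116175314-116175613, minus strand: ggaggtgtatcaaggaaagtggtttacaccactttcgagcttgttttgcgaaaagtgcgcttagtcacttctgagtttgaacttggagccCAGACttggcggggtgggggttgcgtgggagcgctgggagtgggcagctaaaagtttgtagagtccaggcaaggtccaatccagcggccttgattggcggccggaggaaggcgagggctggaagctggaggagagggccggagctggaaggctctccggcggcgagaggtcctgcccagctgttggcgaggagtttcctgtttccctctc
The Tgfb1 sequence held 6 GC boxes at a GC content of 77.0%, against a median of 52.7% over all promoters. The Tgfbr1 and Smad3 sequences held 2 GC boxes each and no Smad box. The Tgfbr2 sequence held 1 Smad box and no GC box. Deposited features covered all 300 bases of the Tgfb1, Tgfbr1 and Smad3 windows and 257 bases of the Tgfbr2 window. The table also lists a further start of Tgfbr1 inside the gene, and no feature overlapped the listed promoter window of Tgfb2.

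Among the ligands, Tgfb1 was lower in UVB than in telogen skin and Tgfb2 was higher, with Tgfb3 lowest in UVB. Tgfb1, at chr7:25687002-25705077, encodes the ligand made by many immune and endothelial cells. Its level was 81.2 CPM (75.5 to 87.3) in UVB, 88.2 CPM (80.8 to 96.0) in anagen and 126 CPM (113 to 139.8) in telogen nuclei. The ratio was 0.645 (0.567 to 0.734) for UVB over telogen, 0.700 (0.611 to 0.804) for anagen over telogen and 0.921 (0.822 to 1.03) for UVB over anagen. Telogen nuclei thus stood above both other conditions beyond counting error, and the shares of myeloid-like and endothelial-like nuclei, in which Tgfb1 was highest, were also highest in telogen. The part of these shares in the difference was not tested. Within the melanocyte-like class Tgfb1 had 77.8 CPM in UVB, 86.0 CPM in anagen and 91.0 CPM in telogen nuclei, with overlapping intervals. Features that also lie in the window of the neighbouring gene B9d2 held 53.7% of the Tgfb1 counts, and without them the UVB over telogen ratio was 0.671.

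Tgfb2, at chr1:186622787-186709697, encodes the ligand produced by the dermal papilla. Its level was 52.2 CPM (47.8 to 57.0) in UVB, 40.3 CPM (35.4 to 45.6) in anagen and 37.3 CPM (31.1 to 44.4) in telogen nuclei. Over all nuclei UVB stood above both other conditions, by a ratio of 1.40 (1.15 to 1.71) over telogen and 1.30 (1.11 to 1.51) over anagen. Over 13 settings the ratio ran from 1.18 to 1.53 over telogen and from 0.923 to 1.37 over anagen. The value of 0.923 used features within 1 kb of the gene start. Within classes the UVB over anagen ratio was 2.77 in melanocyte-like and 0.477 in keratinocyte-like nuclei. The part of the class shares in the sum was not tested. Tgfb3, at chr12:86056743-86079041, encodes the third ligand. Its level was 38.7 CPM (34.7 to 42.9) in UVB, 52.8 CPM (47.2 to 58.9) in anagen and 48.6 CPM (41.3 to 56.9) in telogen nuclei. The UVB over anagen ratio of Tgfb3 was 0.733 (0.628 to 0.855), and the anagen and telogen intervals overlapped.

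The receptor genes had nearly the same level in all 3 conditions when all sorted nuclei were summed. Tgfbr1, at chr4:47353222-47414926, encodes the type I receptor kinase, and its level was 134 CPM (126 to 142) in UVB, 134 CPM (124 to 144) in anagen and 127 CPM (114 to 142) in telogen nuclei. Tgfbr2, at chr9:116087695-116175363, encodes the type II receptor, and its level was 111 CPM (105 to 119) in UVB, 117 CPM (109 to 126) in anagen and 109 CPM (97.3 to 121) in telogen nuclei. The intervals of each gene overlapped across the conditions. Tgfbr3, at chr5:107106567-107289629, encodes betaglycan, a co-receptor that presents TGF-β2. Its level was 307 CPM (296 to 319) in UVB, 308 CPM (294 to 323) in anagen and 323 CPM (303 to 344) in telogen nuclei. For Tgfbr3 this even sum covered unequal classes: outside the melanocyte-like class its level was 417 CPM in UVB, 529.9 CPM in anagen and 333 CPM in telogen nuclei, and inside the class it was 149 CPM, 55.8 CPM and 179 CPM in the same order.

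Among the intracellular members, Smad7 was the one with the largest difference, and it was highest in anagen. Smad7, at chr18:75367365-75395935, encodes the inhibitory Smad that binds the type I receptor and is itself induced by TGF-β. Its level was 151 CPM (143 to 159) in UVB, 222 CPM (210.2 to 234) in anagen and 124 CPM (112 to 137) in telogen nuclei. The ratio was 1.79 (1.60 to 2.01) for anagen over telogen, 1.22 (1.09 to 1.37) for UVB over telogen and 0.679 (0.630 to 0.733) for UVB over anagen. No pair of conditions had overlapping intervals for Smad7. When nuclei deeper than 3 times the condition's median were dropped, the anagen over telogen ratio was 1.46 and no longer past 1.5-fold.

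Smad3, at chr9:63646766-63757994, encodes a Smad that binds DNA and is phosphorylated by the type I receptor. Its level was 208 CPM (199 to 218) in UVB, 246 CPM (233 to 259) in anagen and 237 CPM (219 to 255) in telogen nuclei, so UVB was lower than both by less than 1.5-fold. This value rests on 1 subset of the UVB nuclei. The barcodes carry a tag number whose meaning is not given in the labels, and 1 tag number held 2934 of the UVB nuclei. Melanocyte-like nuclei made up 25.4% of that tag number, against 45.8% of all UVB nuclei. Without the largest tag number of each condition the Smad3 ratio was 0.473 for UVB over telogen and 0.553 for UVB over anagen. Tgfbr3 behaved alike in 1 comparison, with 0.650 for UVB over telogen in the same setting. Leaving out these tag numbers also changes the shares of the classes, and the part of the shares in these ratios was not tested.

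Smad2, at chr18:76241090-76311748, encodes the partner of Smad3 in the same step. Its level was 70.0 CPM (64.6 to 75.7) in UVB, 66.2 CPM (59.6 to 73.3) in anagen and 74.4 CPM (64.5 to 85.5) in telogen nuclei. Skil, at chr3:31095058-31122923, encodes SnoN, a co-repressor of Smad complexes. Its level was 142 CPM (134 to 150.2) in UVB, 144 CPM (134 to 154) in anagen and 150.0 CPM (136 to 165) in telogen nuclei. The intervals of Smad2 and of Skil overlapped across all 3 conditions.

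Values by tag number showed how far the nuclei of 1 condition spread. Tag numbers with at least 50 nuclei, of which UVB had 15, anagen 7 and telogen 10, are subsets of 1 pool and not replicates. They also differ in make-up and depth. Melanocyte-like nuclei made up 12.0% to 75.1% of the UVB tag numbers, 17.7% to 66.0% of the anagen ones and 0% to 21.3% of the telogen ones. Median counts per nucleus ran from 871 to 15216 over the telogen tag numbers. The part of make-up and depth in the ranges below was not tested. For Smad7 the lowest, median and highest level was 54.8, 150.3 and 190.1 CPM over the UVB tag numbers, 132, 203 and 279 CPM over the anagen ones and 82.6, 123.5 and 174 CPM over the telogen ones. The anagen median lay above the highest UVB and telogen values, but the ranges overlapped. For Tgfb1 the same 3 values were 60.9, 82.0 and 186 CPM in UVB, 77.0, 88.9 and 126.5 CPM in anagen and 81.1, 122.5 and 174 CPM in telogen. The Tgfb1 ranges overlapped as well, with the telogen median close to the highest anagen value. Smad3 ranged from 53.7 to 465 CPM in UVB, from 126.5 to 334 CPM in anagen and from 156 to 407 CPM in telogen, the widest spread of the Smad genes.

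**Figure D1:**
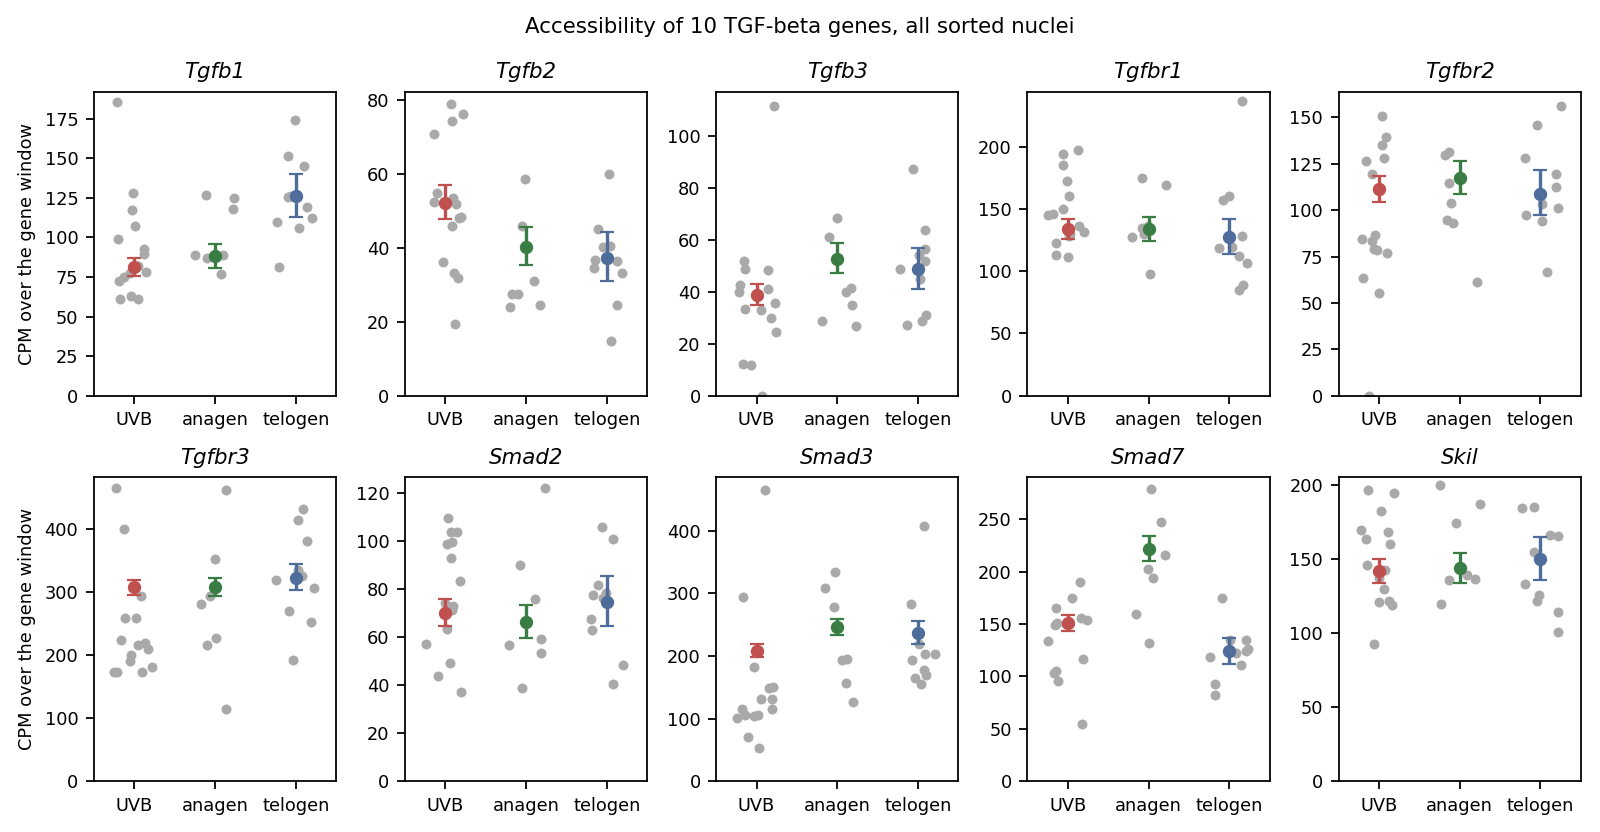
Accessibility of the 10 genes in CPM (vertical axis, from 0) in UVB, anagen and telogen nuclei, each coloured point being the sum over all nuclei with its 95% counting interval and each grey point 1 tag number with at least 50 nuclei. Smad7 is highest in anagen at 222 CPM and Tgfb1 highest in telogen at 126 CPM, while the other genes lie closer together.

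Past 1.5-fold with at least 30 nonzero entries, 1 of the 10 genes differed for UVB over telogen (Tgfb1, lower), 1 for anagen over telogen (Smad7, higher) and 0 for UVB over anagen. The shares among all genes with enough entries were 23.7%, 27.7% and 22.0% for the same comparisons, so the 10 genes were past the fold no more often than the background. Their median log2 ratio was -0.08 for UVB over telogen, 0.06 for anagen over telogen and -0.05 for UVB over anagen, beside -0.13, -0.11 and -0.03 for all genes. The Tgfb1 ratio of 0.645 lay just past the fold, between 0.645 and 0.695 over 13 settings, and the Smad7 ratio for UVB over anagen, 0.679, lay just inside it. The UVB over telogen and anagen over telogen comparisons share the telogen nuclei.

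**Figure D2:**
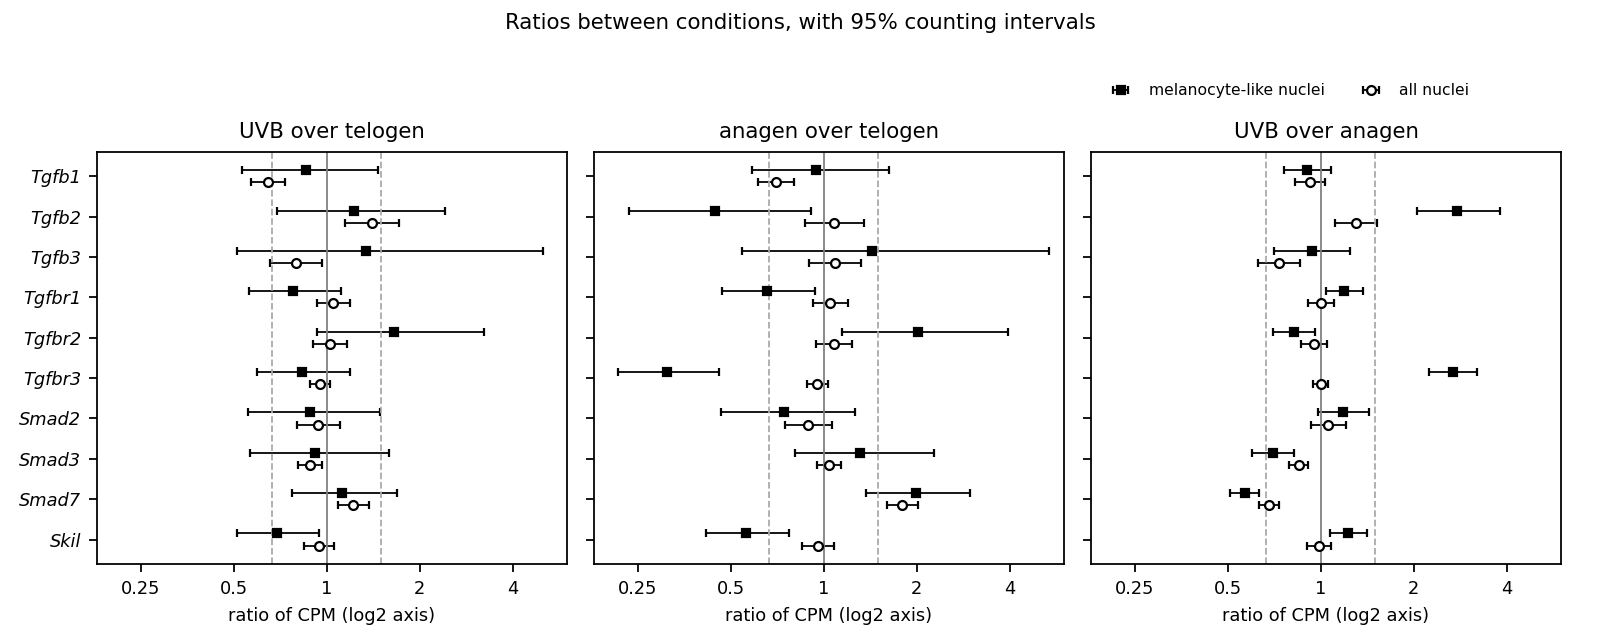
Ratios of CPM between conditions for the 10 genes on a log2 axis, with 95% counting intervals, filled squares for melanocyte-like nuclei and open circles for all nuclei, and dashed lines at 1.5-fold in either direction. Melanocyte-like values of Tgfb2 and Tgfbr3 lie at 0.444 and 0.311 for anagen over telogen and at 2.77 and 2.67 for UVB over anagen, where the values over all nuclei lie between 0.954 and 1.30.

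Classes of nuclei differed several-fold in Tgfbr3, Smad3, Tgfb1 and Tgfb2. Fibroblast-like nuclei had the highest Tgfbr3 level, with 648 CPM in UVB, 704 CPM in anagen and 709 CPM in telogen, and myeloid-like nuclei the lowest by the mean over conditions, with 108, 93.9 and 75.9 CPM in the same order. In anagen alone melanocyte-like nuclei were lower, at 55.8 CPM. Smad3 was highest by its mean over conditions in myeloid-like nuclei, at 322 CPM in UVB, 575 CPM in anagen and 437 CPM in telogen. Fibroblast-like nuclei came next at 455, 476 and 399 CPM, and these classes did not differ beyond the spread over conditions. Melanocyte-like nuclei were the lowest of 7 classes for Smad3, at 86.1, 123 and 93.9 CPM.

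The 3 ligand genes were highest in different classes by the mean over conditions. Tgfb1 led in myeloid-like nuclei, with 240 CPM in UVB, 211 CPM in anagen and 194 CPM in telogen, followed by endothelial-like nuclei with 128, 153 and 181 CPM. By that mean Tgfb2 was lowest in those myeloid-like nuclei, with 4.32 CPM in UVB, 23.5 CPM in anagen and 13.4 CPM in telogen, and highest in Schwann-like nuclei with 71.0, 81.2 and 96.1 CPM. In anagen alone melanocyte-like nuclei were the lowest for Tgfb2, at 18.9 CPM, and keratinocyte-like nuclei the highest, at 95.2 CPM, with intervals that overlapped those of the myeloid-like and the Schwann-like class. The highest mean of Tgfb3 was in cluster 6, a cluster left unnamed because it fitted a pericyte marker list here and a fibroblast list under other clustering settings, with 57.1 CPM in UVB, 106 CPM in anagen and 88.4 CPM in telogen nuclei. Endothelial-like nuclei were above it in UVB, at 61.5 CPM, and Schwann-like nuclei in telogen, at 118 CPM. Melanocyte-like nuclei were near the bottom for Tgfb3, with 30.6, 32.7 and 22.8 CPM, and did not differ there from myeloid-like nuclei beyond the spread over conditions. Clusters were made from all features, so these class levels are a description.

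The receptor kinase genes, Skil and Smad2 had a narrower range of class means than Tgfbr3. The mean level of Tgfbr1 over conditions lay between 108 CPM in keratinocyte-like and 166 CPM in melanocyte-like nuclei. Tgfbr2 had its highest mean in myeloid-like nuclei, at 189 CPM, and its lowest in melanocyte-like nuclei, at 84.3 CPM. Skil lay between 115 CPM in fibroblast-like and 199 CPM in endothelial-like nuclei, and Smad2 between 52.2 CPM in fibroblast-like and 108 CPM in Schwann-like nuclei. Neighbouring classes in these 4 orders overlapped in their values over conditions.

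**Figure D3:**
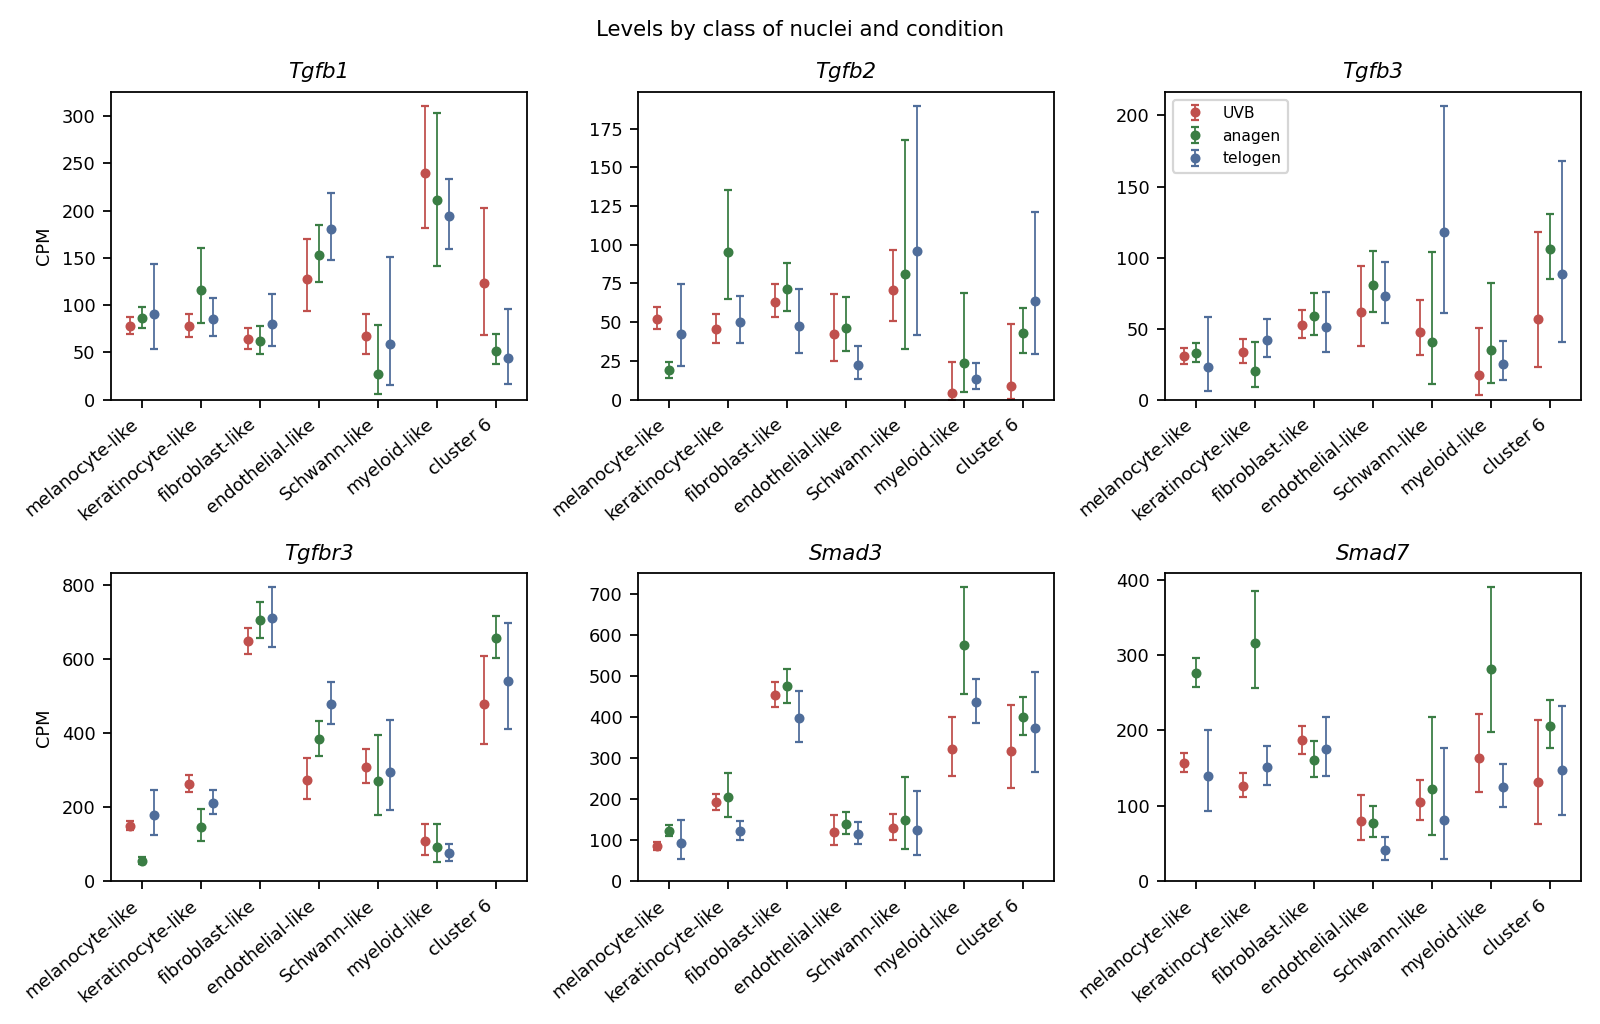
Levels in CPM of Tgfb1, Tgfb2, Tgfb3, Tgfbr3, Smad3 and Smad7 in 7 classes of nuclei, with UVB, anagen and telogen from left to right in each class and 95% counting intervals. Tgfbr3 reaches 709 CPM in fibroblast-like nuclei and 55.8 CPM in anagen melanocyte-like nuclei, and Smad7 is highest in anagen in the melanocyte-like, keratinocyte-like and myeloid-like classes.

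Smad7 was higher in anagen than in telogen within several classes. The anagen and telogen levels were 276.5 and 139 CPM in melanocyte-like nuclei, a ratio of 1.98 (1.37 to 2.98). They were 316 and 152 CPM in keratinocyte-like nuclei, a ratio of 2.08 (1.59 to 2.71), and 282 and 125 CPM in myeloid-like nuclei, a ratio of 2.25 (1.48 to 3.38). In fibroblast-like nuclei, with 161 and 176 CPM, the difference was not past 1.5-fold and had the opposite sign. Endothelial-like nuclei, the class with the lowest Smad7 level, had 76.8 and 41.5 CPM. In keratinocyte-like nuclei 6 of the 10 genes were past 1.5-fold for anagen over telogen, against 35.2% of all genes there. Tgfb2 (1.90), Tgfbr1 (1.64), Smad3 (1.68), Smad7 and Skil (1.76) were higher in anagen and Tgfb3 (0.490) lower, from as few as 11 anagen counts for Tgfb3. The conditions filled the clusters of these classes unequally. Cluster 10 held 217 anagen and 87 telogen keratinocyte-like nuclei, and cluster 3 held 109 and 351. In clusters 1 and 4 of the melanocyte-like class the Smad7 ratio was 1.11. The part of the clusters in these ratios was not tested.

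Genes whose levels varied most like a member over the 19 sums of a class and a condition were found by Pearson's r of log2 CPM. Tgfbr3 was followed most closely by Abi3bp (0.969) and Ltbp1 (0.943), Smad3 by Stx4a (0.936) and Emilin2 (0.907), and Tgfb1 by Ciita (0.931) and Tspan13 (0.915). Tgfb3 was nearest to A4galt (0.904) and Dock6 (0.887), Skil to Gm38469 (0.876) and Sgtb (0.843), Smad2 to Ccnh (0.867) and Tmem33 (0.858), and Tgfbr2 to Mrpl38 (0.843) and Cpsf1 (0.833). The values were lower for Smad7, with Agap2 (0.813) and Scd1 (0.774), for Tgfb2, with Cers3 (0.798) and Hdgfl3 (0.782), and for Tgfbr1, with Telo2 (0.774) and Sulf2 (0.756). Between members, Tgfbr3 and Tgfb3 had the highest r, 0.773, and Tgfb1 and Tgfb2 the lowest, -0.677. The 19 points share libraries and depth and are not independent samples.

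Within the melanocyte-like class the anagen nuclei stood apart in Tgfb2, Tgfbr3 and Smad7. Tgfb2 had 52.4 CPM in UVB, 18.9 CPM in anagen and 42.7 CPM in telogen nuclei, and its ratio was 0.444 (0.235 to 0.910) for anagen over telogen and 2.77 (2.05 to 3.79) for UVB over anagen. Tgfbr3 had 149 CPM in UVB, 55.8 CPM in anagen and 179 CPM in telogen nuclei, with ratios of 0.311 (0.216 to 0.458) and 2.67 (2.24 to 3.21) for the same comparisons. Both the ligand gene and the gene of its co-receptor were thus lower in anagen melanocyte-like nuclei than in either other condition. Smad7 went the other way, with 157 CPM in UVB, 276.5 CPM in anagen and 139 CPM in telogen nuclei and a UVB over anagen ratio of 0.567 (0.508 to 0.631). Telogen held 230 melanocyte-like nuclei, against 2999 in UVB and 1148 in anagen, so its values are the least certain. When the deepest nuclei, above 3 times the median, were dropped, the UVB over anagen ratio was 1.72 for Tgfb2 and 1.55 for Tgfbr3, and the anagen over telogen ratio was 0.713 for Tgfb2 and 0.527 for Tgfbr3.

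Of the 10 genes, 6 were past 1.5-fold for anagen over telogen in the melanocyte-like class, against 49.1% of all genes. Besides Tgfb2, Tgfbr3 and Smad7 these were Tgfbr2, higher at 2.03 (1.14 to 3.96), and Tgfbr1 and Skil, lower at 0.654 (0.467 to 0.940) and 0.562 (0.415 to 0.774). For UVB over telogen it was 1 gene against 31.1% of all genes, namely Tgfbr2 at 1.65 with an interval of 0.934 to 3.23. It was 3 genes for UVB over anagen, Tgfb2, Tgfbr3 and Smad7, against 38.3%. Each of these counts was near or below its background share. Outside the melanocyte-like class 1 gene was past the fold for UVB over telogen, Tgfb1 at 0.650, against 22.4% of all genes. There Tgfb2 at 1.60 (1.26 to 2.03) and Tgfbr3 at 1.59 (1.47 to 1.72) were past it for anagen over telogen, against 27.2%, and Tgfb3 at 0.629 (0.522 to 0.757) for UVB over anagen, against 20.5%. The direction of Tgfb2 and Tgfbr3 for anagen over telogen was hence opposite inside and outside the class.

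The melanocyte-like class consisted of 3 clusters, and the conditions filled them unequally. Cluster 7 held 42 UVB, 787 anagen and 3 telogen nuclei, whereas clusters 1 and 4 held 2957 UVB, 361 anagen and 227 telogen nuclei. In cluster 7, 12 of the 13 melanocyte markers were at least 2-fold above all other nuclei, against 6 in cluster 1 and 7 in cluster 4. No marker was among the 10 genes of largest fold in clusters 1 and 4, and 1, Oca2, was in cluster 7, whose nuclei had a median depth 2.17 times that of their condition. Among anagen nuclei the pigment gene Oca2 had 426 CPM in cluster 7 and 89.4 CPM in clusters 1 and 4, the growth factor receptor gene Kit 569.5 and 249 CPM, and Dct 869 and 978 CPM.

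The 3 genes that set anagen apart differed between these clusters. In anagen nuclei Tgfbr3 had 38.3 CPM in cluster 7 and 184 CPM in clusters 1 and 4, a ratio of 0.208 (0.150 to 0.292). Tgfb2 had 14.7 and 49.8 CPM, a ratio of 0.295 (0.161 to 0.566). Smad7 had 294 and 149.5 CPM, a ratio of 1.97 (1.48 to 2.66). These were the 3 of 10 genes past 1.5-fold, against 44.6% of all genes, and since the clusters were made from all features the values are a description.

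Within clusters 1 and 4 alone the conditions lay close together for these genes. Tgfbr3 had 152 CPM in UVB, 184 CPM in anagen and 184 CPM in telogen nuclei, Tgfb2 had 53.5, 49.8 and 43.8 CPM, and Smad7 had 153, 149.5 and 134 CPM. The anagen over telogen ratio there was 1.00 for Tgfbr3, 1.14 for Tgfb2 and 1.11 for Smad7. The 42 UVB nuclei of cluster 7 had 80.4 CPM of Tgfbr3, 21.2 CPM of Tgfb2 and 258 CPM of Smad7. The interval for Tgfbr3, 41.5 to 140.4 CPM from 19 counts, overlapped that of the anagen nuclei of the same cluster, 31.0 to 46.9 CPM, and also that of the UVB nuclei of clusters 1 and 4, 139 to 165 CPM. The limitation to clusters 1 and 4 was chosen after the values were seen.

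**Figure D4:**
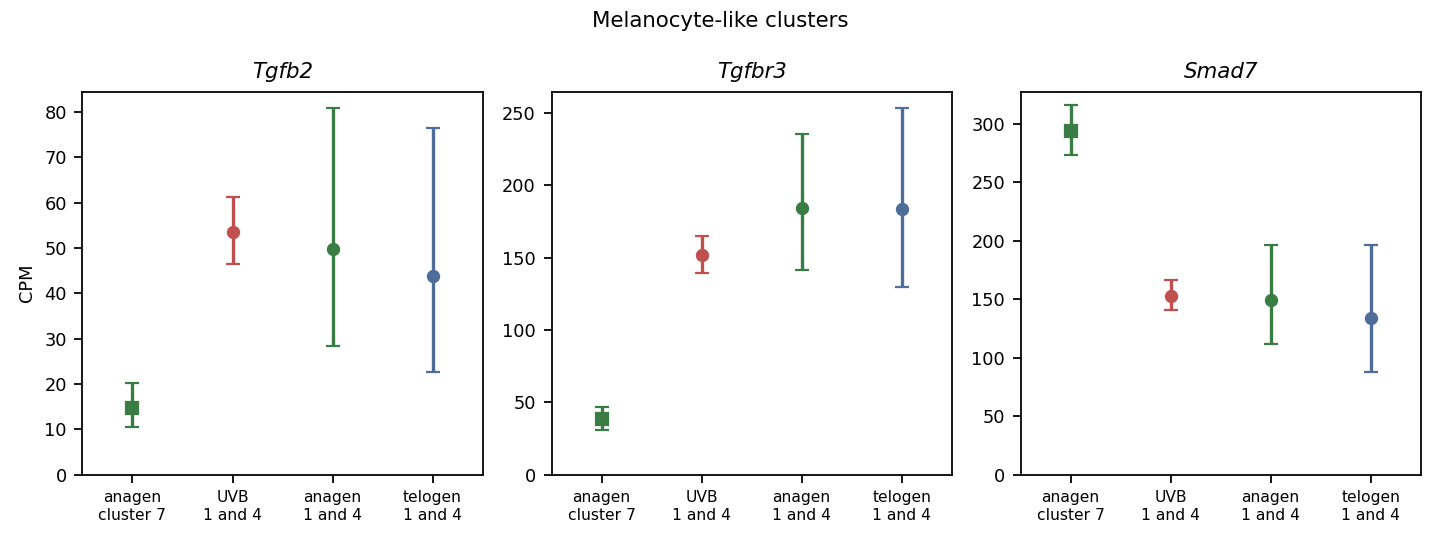
Levels in CPM of Tgfb2, Tgfbr3 and Smad7 with 95% counting intervals in anagen nuclei of cluster 7 (squares) and in UVB, anagen and telogen nuclei of clusters 1 and 4 (circles). Cluster 7 is lower in Tgfb2 and Tgfbr3 at 14.7 and 38.3 CPM and higher in Smad7 at 294 CPM, while the intervals of the 3 conditions in clusters 1 and 4 overlap.

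Counts near gene ends were spread unequally as well. Features within 1 kb of a gene end took 42.3% of the counts of melanocyte-like nuclei in UVB, 34.6% in anagen and 42.7% in telogen, and 33.6% in the anagen nuclei of cluster 7. The Smad7 difference lay mostly away from the gene ends. Its 4 features within 1 kb of either end had 79.5 CPM in UVB, 87.0 CPM in anagen and 54.1 CPM in telogen melanocyte-like nuclei, and its other 28 features had 77.2, 189.5 and 85.3 CPM. For Skil the pattern was split: its features at the gene ends had 159 CPM in UVB, 115 CPM in anagen and 236 CPM in telogen melanocyte-like nuclei, and those elsewhere 7.42, 20.4 and 5.69 CPM, the last from 2 counts. Tgfbr1 had 142.5, 97.3 and 196 CPM at its starts in the same nuclei. The part of the lower gene-end share in these values was not tested.

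Single features showed how the counts of each gene were distributed. A single feature held 67.9% of the Skil counts, 68.1% of those of Smad2 and 66.2% of those of Tgfbr1, whereas 14 features were needed for 50% of the counts of Tgfbr3 and 9 for Smad3. Of the 320 features, 159 had at least 20 entries for UVB over telogen, 149 for anagen over telogen and 202 for UVB over anagen, and the rest were not compared. Past 2-fold, 21 were higher and 21 lower for UVB over telogen, against 33.6% of all features (20.8% higher and 12.9% lower). For anagen over telogen 32 were higher and 11 lower, against 41.8% (29.2% higher and 12.6% lower). For UVB over anagen 19 were higher and 37 lower, against 37.2% (15.8% higher and 21.4% lower). All features thus leaned towards anagen as well.

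The features of Smad7 that differed between anagen and the other conditions were all higher in anagen. For anagen over telogen 14 of its 27 compared features were higher and 0 lower, where 29.2% of all features were higher. In UVB over anagen 0 of 29 were higher and 13 lower, where 21.4% of all features were lower. For UVB over telogen 2 of 20 were higher and 2 lower, where 20.8% of all features were higher and 12.9% lower. The minimum of 20 entries counts both conditions together, so a feature can pass it through its anagen counts alone. These features are also parts of the Smad7 sum given above, so their direction is a description and no separate support for it. The feature with the largest UVB over telogen ratio, chr18:75375455-75375955, lies 8340 bp inside the gene and had 7.11 CPM in UVB, 12.3 CPM in anagen and 2.10 CPM in telogen nuclei. Its ratio was 5.85 (2.69 to 15.1) for anagen over telogen and 3.38 (1.54 to 8.77) for UVB over telogen. In melanocyte-like nuclei alone it had 13.2 CPM in UVB, 21.8 CPM in anagen and 5.69 CPM in telogen. The largest anagen over telogen ratio, 7.20 (1.79 to 62.9), belonged to a feature just past the far end, chr18:75396031-75396531, with 1.17 CPM in UVB, 4.14 CPM in anagen and 0.574 CPM in telogen nuclei, the last from 3 counts.

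**Figure D5:**
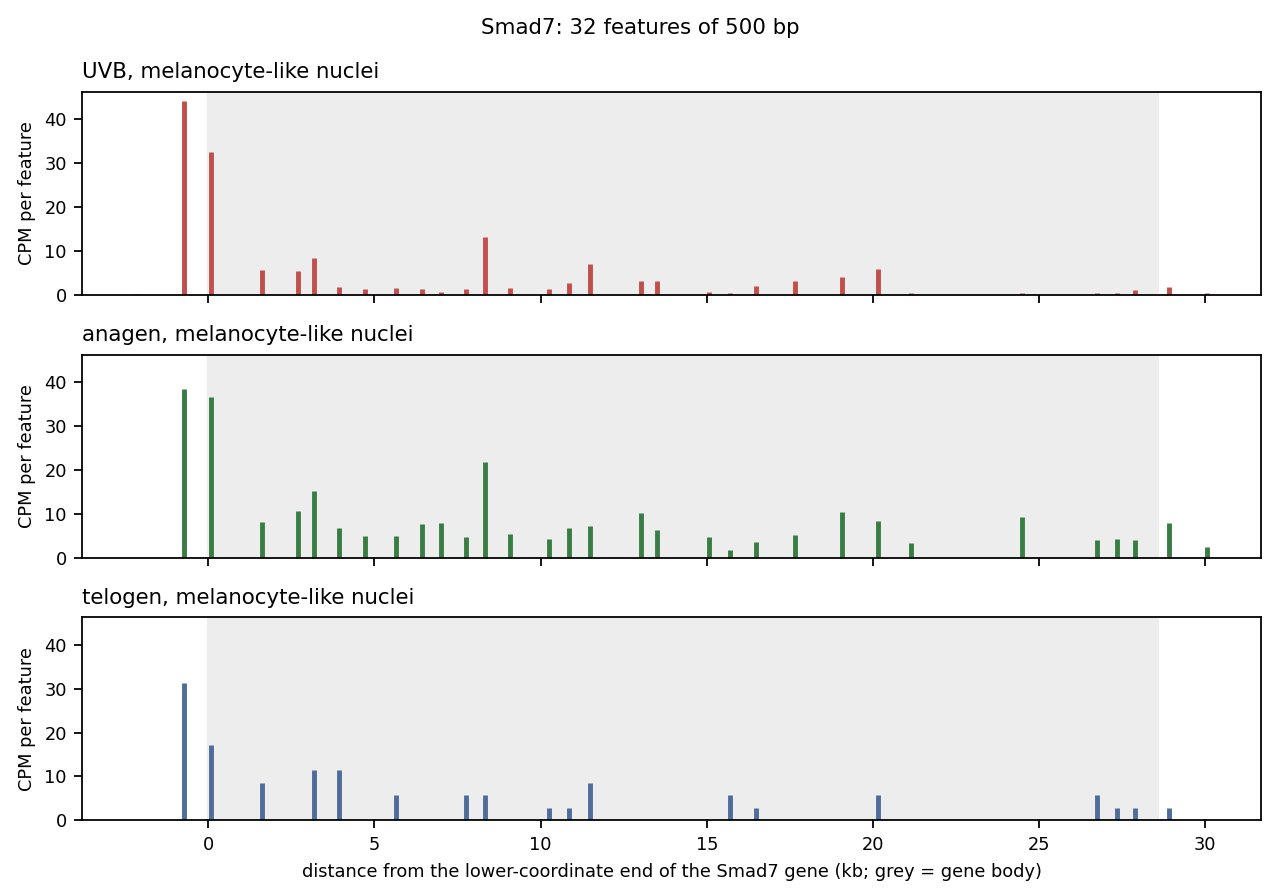
Level in CPM of each of the 32 Smad7 features in melanocyte-like nuclei of UVB, anagen and telogen skin, against distance in kb from the lower-coordinate end of the gene, with the gene body in grey. The features near that end are tall in all 3 conditions, and the anagen nuclei have counts at more features along the gene body, where the 28 features away from the ends sum to 189.5 CPM.

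In Tgfbr3 and Tgfb2 features away from the starts differed between conditions. The leading Tgfbr3 feature, chr5:107167729-107168229, lies 61412 bp from the nearer gene end and had 39.3 CPM in UVB, 35.5 CPM in anagen and 27.0 CPM in telogen nuclei. Melanocyte-like nuclei had 47.8 CPM there in UVB, 9.05 CPM in anagen and 59.7 CPM in telogen, and all other nuclei 33.4, 58.7 and 24.6 CPM, so the same feature was lowest in anagen inside the class and highest outside it. Another Tgfbr3 feature, chr5:107209852-107210352, had 2.97 CPM in UVB, 0.192 CPM in anagen and 3.25 CPM in telogen nuclei, with a UVB over anagen ratio of 15.4 (3.86 to 134). Its anagen level lay below the 0.289 CPM (3 counts) that even a count of 0 allows. A Tgfb2 feature, chr1:186627334-186627834, had 6.98 CPM in UVB, 1.83 CPM in anagen and 3.44 CPM in telogen nuclei, a UVB over anagen ratio of 3.82 (1.90 to 8.71), and lies 78405 bp from the annotated start, near the other end. In melanocyte-like nuclei it had 13.9, 1.65 and 14.2 CPM. The Tgfb2 feature near its annotated start, chr1:186705390-186705890, had 8.34 CPM in UVB, 9.04 CPM in anagen and 7.08 CPM in telogen nuclei, with no such difference.

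Other features of Tgfbr3, Smad3 and Tgfbr2 differed in both directions over the comparisons. In Tgfbr3, chr5:107111731-107112231 had 6.49 CPM in UVB, 6.64 CPM in anagen and 1.91 CPM in telogen nuclei, with an anagen over telogen ratio of 3.47 (1.45 to 10.1), and its level in melanocyte-like nuclei was 0.908 CPM in UVB and 0.823 CPM in anagen, with no count in telogen. The lowest UVB over telogen ratio of that gene, 0.212 (0.0993 to 0.442), was at chr5:107233831-107234331, with 1.54 CPM in UVB, 3.08 CPM in anagen and 7.27 CPM in telogen nuclei. Telogen was thus the lowest condition at the first feature and the highest at the second. Of 53 Tgfbr3 features compared for UVB over telogen, 10 were higher and 7 lower, where 20.8% of all features were higher and 12.9% lower. In Smad3, chr9:63744747-63745247 had 4.20 CPM in UVB, 0.769 CPM in anagen and 2.87 CPM in telogen nuclei, with a UVB over anagen ratio of 5.46 (1.96 to 21.1). Another Smad3 feature, chr9:63667212-63667712, had the opposite order with 0.618 CPM in UVB, 3.75 CPM in anagen and 1.91 CPM in telogen nuclei. Of 44 Smad3 features compared for UVB over anagen, 7 were higher and 12 lower, where 15.8% of all features were higher and 21.4% lower. In Tgfbr2, chr9:116098787-116099287 had 7.48 CPM in UVB, 6.54 CPM in anagen and 2.87 CPM in telogen nuclei, and in melanocyte-like nuclei 13.0 CPM in UVB, 10.5 CPM in anagen and no count in telogen, which allows up to 8.53 CPM (3 counts).

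Single features stood out in anagen also in genes whose sums over all nuclei were even. The features were named for their large ratios, and a feature can pass the minimum of entries through its anagen counts alone. Their high level in anagen is therefore a description. In Skil, chr3:31097689-31098189 had 0.803 CPM in UVB, 5.87 CPM in anagen and 0.383 CPM in telogen nuclei, and 59 of its 61 anagen counts were in melanocyte-like nuclei. In Tgfbr2, chr9:116151482-116151982 had 0.927 CPM in UVB, 5.58 CPM in anagen and 1.15 CPM in telogen nuclei, with 50 of 58 anagen counts in melanocyte-like nuclei and an anagen over telogen ratio of 4.86 (1.90 to 15.8). In Smad2, chr18:76266599-76267099 had an anagen over telogen ratio of 8.80, from 35 anagen counts, 27 of them in melanocyte-like nuclei, and 2 telogen counts. The leading features near the starts were more even. The Skil one, chr3:31094629-31095129, had 104 CPM in UVB, 91.4 CPM in anagen and 90.5 CPM in telogen nuclei, and the Tgfbr1 one, chr4:47352869-47353369, which covers the promoter printed above, had 93.4, 78.8 and 89.0 CPM.

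Smad3 and the ligand genes Tgfb1 and Tgfb3 had features with large differences at low levels. Those features were named for their large ratios, so their differences are a description. The leading Smad3 feature, chr9:63757934-63758434, which covers its printed promoter, had 45.5 CPM in UVB, 40.7 CPM in anagen and 43.8 CPM in telogen nuclei. A Smad3 feature inside the gene, chr9:63737923-63738423, had 1.67 CPM in UVB, 1.73 CPM in anagen and 9.38 CPM in telogen nuclei, a UVB over telogen ratio of 0.178. Another, chr9:63657043-63657543, had 1.05 CPM in UVB, 4.33 CPM in anagen and 0.191 CPM in telogen nuclei, the last from 1 count. In Tgfb1 the leading feature, chr7:25688944-25689444, had 31.0 CPM in UVB, 25.7 CPM in anagen and 39.6 CPM in telogen nuclei. The start feature over the printed promoter, chr7:25686603-25687103, had 20.5 CPM in UVB, 23.3 CPM in anagen and 34.3 CPM in telogen nuclei, and it is shared with B9d2. Downstream of Tgfb1, chr7:25706678-25707178 had 1.67 CPM in UVB, 2.50 CPM in anagen and 7.27 CPM in telogen nuclei, with 0.606 CPM in UVB and 0.206 CPM in anagen melanocyte-like nuclei. Telogen melanocyte-like nuclei had no count there, which allows up to 8.53 CPM (3 counts) and so does not show a level below that of all telogen nuclei. In Tgfb3, chr12:86056873-86057373 had 0.680 CPM in UVB, 5.19 CPM in anagen and 2.87 CPM in telogen nuclei, a UVB over anagen ratio of 0.131 (0.0396 to 0.342).

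Past 1.5-fold for UVB over telogen, 8.63% of all genes were higher and 15.1% lower over all nuclei. Of 40 other genes of the pathway, all with enough entries, 0 were higher and 3 lower. These were Lrrc32, whose product holds latent TGF-β at the surface of cells, at 38.2 CPM in UVB and 66.6 CPM in telogen nuclei, Eng, an endothelial co-receptor gene, at 42.4 and 73.7 CPM, and Trim33, a Smad-binding ubiquitin ligase gene, at 29.2 and 47.3 CPM. For anagen over telogen 12.2% of all genes were higher and 15.5% lower, and of the 40 pathway genes 4 were higher and 4 lower. The highest were Pmepa1, a TGF-β target that sequesters receptor-activated Smads, at 196 CPM in anagen and 117 CPM in telogen nuclei, the protease gene Mmp14 at 202 and 125 CPM, and the latent TGF-β binding protein gene Ltbp3 at 59.6 and 37.9 CPM. The lowest were the target gene Tgfbi at 33.5 CPM in anagen and 76.0 CPM in telogen nuclei, the integrin gene Itgb8, whose product activates latent TGF-β, at 28.4 and 48.2 CPM, and Ltbp4 at 126 and 207 CPM. Pmepa1 was thus higher in anagen together with Smad7, and its ratio was 1.67 (1.48 to 1.89).

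For UVB over anagen 4 of the 40 genes were higher and 7 lower. The highest were Itgb8 at 62.1 CPM in UVB and 28.4 CPM in anagen nuclei, Tgfbi at 52.0 and 33.5 CPM, and Itgb6, another activating integrin gene, at 109.6 and 71.4 CPM. The lowest were Smurf2, which encodes a ubiquitin ligase that Smad7 recruits to the receptor, at 39.1 CPM in UVB and 80.6 CPM in anagen nuclei, Lrrc32 at 38.2 and 66.3 CPM, and the coactivator gene Crebbp at 42.8 and 70.4 CPM. By role, for UVB over anagen in all nuclei 5 of 13 Smad partners were lower and 0 higher, with a median log2 ratio of -0.27, where 12.3% of all genes were lower and 9.70% higher with a median of -0.03. Of 13 genes of storage and activation 2 were higher and 2 lower (median 0.10), and 1 was higher and 0 lower both of 7 receptor partners (median -0.06) and of 7 targets (median 0.26). In melanocyte-like nuclei 7 of the 13 Smad partners were lower and 1 higher, with a median of -0.70, where 22.0% of all genes were lower and 16.3% higher with a median of -0.03. The storage and activation genes went the other way there, with 7 higher and 3 lower of 13 (median 0.64), and 2 were higher and 1 lower both of 7 receptor partners (median 0.14) and of 7 targets (median 0.35). Of all 40 genes 12 were higher and 12 lower in that class. Clusters 1 and 4 held 2957 of its 2999 UVB nuclei, and cluster 7 held 787 of its 1148 anagen nuclei. UVB treatment and cluster are thus mixed in these counts, and the part of the clusters was not tested. The list of 40 genes was chosen with earlier results of these data known.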

How the data were processed

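Matrices of 1 UVB, 1 anagen and 1 telogen set of GFP-sorted nuclei were used. The authors deposited whole-number counts of each barcode in 500-bp features, in which 61.1% of entries above 0 are 2 and the highest is 4. Bowtie2, SAMtools, MACS2 and the builds mm10 and GRCm38 are named in the submitters' processing notes, without versions, and the other steps were not given in the sources used here. Coordinates of features are as deposited, and gene bodies and promoters are those of RefSeq GRCm38.p6, with 2 kb added on either side of a body.

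Of barcodes occurring repeatedly in a condition the deepest copy was kept, which removed 62 UVB, 1721 anagen and 543 telogen copies. Counts were then summed per gene and divided by all counts of the same nuclei to give CPM. Intervals are exact Poisson intervals for a level and exact binomial intervals for a ratio, both over nucleus-by-feature entries above 0. With 1 matrix per condition there was no test and no model. A gene was called past the fold at a ratio of at least 1.5 either way with 30 entries, and a feature at 2 with 20 entries. PCR copies cannot be told from separate molecules, so intervals cover counting error only.

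Nuclei of all conditions were clustered together (TF-IDF over 165099 features, truncated SVD with 29 components kept, 15 neighbours, Leiden resolution 0.6) with scikit-learn 1.9.0, igraph 0.11.9 and leidenalg 0.10.2 in Python 3.11.15 (numpy 2.4.6, scipy 1.17.1). No doublet caller was run, and leaving out nuclei above 3 times the median count is an alternative. A cluster was named from marker lists when at least 3 markers were 2-fold higher. The scripts were tested on simulated data. The genes and the lists of pathway genes and markers were chosen with earlier results of these data known. The text names all 10 genes, up to 3 pathway genes with the largest and 3 with the smallest ratio past the fold, the leading, start and most different features, and the 2 genes most like each member. The neighbouring gene B9d2 and the marker genes Oca2, Kit and Dct were named after their values were seen.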

Additional observations from a re-analysis of the deposited data

Results flagged for a closer look

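For 4 genes, classes of nuclei differed past 1.5-fold in opposite directions under the same comparison, each with a 95% counting interval that did not include 1. Opposite ratios with an interval that included 1, as for Tgfb3 and Tgfbr2, are not listed. No difference between classes was tested, since each condition was 1 matrix. For anagen over telogen Tgfb2 had a ratio of 1.90 in keratinocyte-like and 2.10 in endothelial-like nuclei and 0.444 in melanocyte-like nuclei. In the same comparison Tgfbr1 had 1.64 in keratinocyte-like and 0.654 in melanocyte-like nuclei, and Skil had 1.76 in keratinocyte-like and 0.562 in melanocyte-like nuclei. For UVB over anagen Tgfb2 had 2.77 in melanocyte-like and 0.477 in keratinocyte-like nuclei. Smad2 had 2.11 in cluster 6 and 0.619 in keratinocyte-like nuclei for UVB over anagen, from 33 UVB counts in cluster 6 and 44 anagen counts in the keratinocyte-like class. Keratinocyte-like nuclei came from different clusters in the conditions: cluster 3 held 1327 of the UVB, 109 of the anagen and 351 of the telogen nuclei, and cluster 10 held 123, 217 and 87. The part of these shares in the opposite directions was not tested.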

How the results depend on the processing

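No paired analysis was possible because each condition was 1 matrix. In the report 1, 1 and 0 of the 10 genes were past 1.5-fold for UVB over telogen, anagen over telogen and UVB over anagen over all nuclei, and 3, 8 and 11 of 40 pathway genes. For UVB over telogen the count of the 10 genes was 0 with no flank, with 10 kb flanks, with each entry counted as 1, with scaling to gene-end counts or without features shared with another gene. It was 2 with gene-start features, without nuclei above 3 times the median, without the largest tag numbers or with telogen tag numbers 8 to 10. For anagen over telogen it was 0 without the nuclei above 3 times the median and 2 without shared features. For UVB over anagen it was 1 with no flank or gene-end scaling and 2 without the deepest nuclei or the largest tag numbers. Pathway counts for UVB over telogen were 6 with gene-start features, 10 without the largest tag numbers and 5 with telogen tag numbers 8 to 10, and for anagen over telogen 4 without the deepest nuclei and 15 without the largest tag numbers. For UVB over anagen they were 6 with 10 kb flanks or without the deepest nuclei, 4 with gene-start features and 7 with entries counted as 1. Scaling to gene-end counts moved the median log2 ratio of the 10 genes to 0.24 for anagen over telogen.

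In melanocyte-like nuclei, with 1, 6 and 3 genes past the fold in the report, clusters 1 and 4 alone gave 2, 1 and 1. For UVB over telogen the count was 3 with gene-start features or entries counted as 1, 2 without the deepest nuclei and 4 with telogen tag numbers 8 to 10, and for UVB over anagen it was 1 with gene-start features. In clusters 1 and 4 the anagen over telogen ratio turned to 1.14 for Tgfb2 and was even, at 1.00, for Tgfbr3. There the UVB over anagen ratio turned to 0.825 for Tgfbr3 and was close to 1, at 1.02, for Smad7. With gene-start features the direction turned for Tgfb2 in anagen over telogen (2.10, from 1 telogen count). The limitation to clusters 1 and 4 leaves out cluster 7, which held 787 of the 1148 anagen melanocyte-like nuclei. Gene-start features use fewer counts per gene. The cause was not tested further. With at least 50 entries the features past 2-fold numbered 11 of 65, 8 of 52 and 12 of 92, where 24.8%, 25.7% and 24.7% of all features were past it. For UVB over telogen 9 of them were higher and 2 lower, against 21 higher and 21 lower with at least 20 entries. Of all 48537 features with at least 50 entries there, 8979 were higher and 3038 lower, so all features leaned the same way. Leaving out shared features, the choice of telogen tag numbers and the limitation to clusters 1 and 4 were added after the data were seen. The small counts of telogen melanocyte-like nuclei, 8 to 85 per gene, limit those ratios.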
